A study of Mus musculus with 10 samples.

Results

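Complement was examined in mouse microglia through 9 genes, chosen by symbol: the C1q chains C1qa, C1qb and C1qc, the components C3, C4b and Cfp, the inhibitor Serping1, and the receptors C3ar1 and C5ar1. All 9 were among the 24453 genes of the table, and 6 of them met the minimum for testing, 10 RPM or more in 2 or more libraries, as did 4151 genes altogether. RPM gives a gene's reads relative to the reads of its library. Microglia, the resident macrophages of the brain, had been isolated from brains of untreated C57bl6 mice with magnetic beads, and their RNA was amplified and sequenced in 10 libraries. The ageing comparison sets 3 libraries from 15 months of age (called aged) against 3 from 10 weeks of age (called young). In the Rab7 comparison, 2 libraries were labelled Rab7 deltaMG and 2 Rab7 Control, all from mice aged 3 months. Rab7 is a small GTPase of late endosomes, and the series describes the deltaMG group as null mutants. The labels give neither the allele nor the driver of the deletion, and they do not say whether replicates came from separate animals, so p-values measure only how far these libraries vary, which may be technical.

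Complement is a cascade of plasma proteins that tags and clears microbes, debris and, in the developing brain, synapses. C1q binds a target and starts the classical pathway, C4 and C3 are then cleaved and attach to the surface, and the small fragment C3a acts on its receptor. Microglia are the main source of C1q in the mouse brain, while the liver makes most of the complement in plasma.

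The total of reads used for scaling was 6098280 to 9907460 per library, and listed genes held 1284411 to 1855047 of them. Rab7 itself was at 64.2 and 67.5 RPM under the control label and at 72.2 and 79.4 RPM under the deltaMG label, so it was not lower there (limma adjusted p = 0.668), and each direction in that comparison rests on the labels. All 11 microglial markers were present, summing to 3548 to 3992 RPM in aged, 5411 to 6034 in young, 4945 to 5378 in labelled control and 4571 to 5865 in labelled deltaMG libraries. The 11 neutrophil markers summed to 929 to 4141 RPM in aged, 530 to 1350 in young, 439 to 662 in labelled control and 1131 to 1733 in labelled deltaMG libraries, highest in aged replicate 3. The 6 monocyte markers summed to 126 to 365 RPM in aged, 46.1 to 75.6 in young, 35.3 to 46.6 in labelled control and 81.0 to 115 in labelled deltaMG libraries. The 8 border macrophage markers reached at most 84.1 RPM, also in aged replicate 3. Astrocyte, oligodendrocyte, neuron, endothelial, pericyte and lymphocyte lists reached at most 55.9, 27.8, 5.33, 8.92, 2.51 and 5.59 RPM. Y-linked genes summed to 35.7 to 48.7 RPM in aged libraries and at most 0.288 RPM in young ones, and Xist to at most 0.940 and at least 1715 RPM, so age and sex cannot be told apart. The Rab7 libraries held both, with Y-linked sums of 19.3 and 25.8 RPM in labelled control and 20.3 and 9.11 RPM in labelled deltaMG libraries beside 924 to 1562 RPM of Xist. The part of these differences in the results was not tested.

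The 3 C1q genes lie side by side on the minus strand of chromosome 4 (GRCm38, GENCODE): C1qb at 136880129 to 136886187, C1qc at 136889804 to 136893065 and C1qa at 136895917 to 136898803. RefSeq promoter windows (GRCm38.p6) were at hand for 6 of the 9 members. Those of the 2 most abundant C1q genes are shown here because both hold GAGGAA, the ETS core bound by the myeloid factor PU.1, in capitals, which reads TTCCTC where it lies on the other strand. The windows were read 5′ to 3′ along the gene, and for C1qc only the part outside GENCODE's transcripts is printed.
C1qb, chr4:136886201-136886450, minus strand: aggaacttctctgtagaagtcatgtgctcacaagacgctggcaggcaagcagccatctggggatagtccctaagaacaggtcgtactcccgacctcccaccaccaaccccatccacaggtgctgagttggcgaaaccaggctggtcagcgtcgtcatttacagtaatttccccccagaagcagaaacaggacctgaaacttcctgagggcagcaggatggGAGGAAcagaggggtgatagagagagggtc
C1qc, chr4:136893066-136893164, minus strand: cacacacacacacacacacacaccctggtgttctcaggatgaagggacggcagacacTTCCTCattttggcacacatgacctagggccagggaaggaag

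The match began 30 bases before the RefSeq start of C1qb and 193 bases before that of C1qc. GAGGAA was present on either strand in 23.3% of 32851 windows of 250 bases before a start, so a match is common. The E-box CACGTG (6.02% of windows) and the STAT motif TTCNNNGAA (7.02%) were in none of the 6 windows. The C/EBP motif TTGCNNAA (9.56%) was found in the window of C3, 45 bases before its start, and the interferon element GAAANNGAA (7.13%) in that of C5ar1, 66 bases before its start. The C5ar1 match lies among the 202 bases of its window that fall inside the gene as GENCODE places it. GAAANNGAA, TTGCNNAA and GAGGAA were not found in the windows of C3ar1 and Cfp.

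The C1q genes encode the A, B and C chains of the recognition protein C1q. They were the most abundant members per length of exon, with C1qb at a mean of 412, C1qc at 224 and C1qa at 91.8 RPM per kb in young libraries, against means of 40.3 RPM per kb for C3ar1, 15.4 for C5ar1, 3.45 for C3, 0.848 for Cfp and 0.170 for C4b. C1qb measured 525, 466 and 354 RPM in young, 335, 429 and 399 in aged, 791 and 775 in labelled control and 448 and 598 in labelled deltaMG libraries. The libraries labelled control were thus above all others, and the aged and young ranges overlapped. C1qc measured 516, 463 and 317 RPM in young, 310, 380 and 406 in aged, 650 and 594 in labelled control and 461 and 636 in labelled deltaMG libraries. Here the ranges of the libraries labelled control and deltaMG overlapped, and aged lay within or just below the range of young. C1qa measured 68.9, 93.8 and 124 RPM in young, 97.4, 95.9 and 92.2 in aged, 135 and 141 in labelled control and 88.3 and 127 in labelled deltaMG libraries. By group mean all 3 chains were highest in labelled control and next highest in labelled deltaMG libraries. Young stood above aged by mean for C1qb and C1qc, while the C1qa means were 95.5 RPM (SD 27.5) in young and 95.2 RPM in aged libraries.

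No C1q chain passed the test in either comparison. For aged minus young, the log2 fold change was 0.03 for C1qa (95% interval -0.35 to 0.42), -0.20 for C1qb (-0.54 to 0.14) and -0.22 for C1qc (-0.60 to 0.16), with limma adjusted p of 0.943, 0.534 and 0.535. Quantile normalization turned the sign of C1qb and C1qc, and leaving out young replicate 1 turned that of C1qa. For labelled deltaMG minus labelled control it was -0.60 for C1qb with a standard error of 0.19, -0.38 for C1qa (0.22) and -0.20 for C1qc (0.22), with limma adjusted p of 0.106, 0.396 and 0.696. C1qb had an adjusted p of 0.0478 with quantile normalization, 0.00784 in a fit of the 4 libraries alone and 0.0434 with array weights. The fit of the 4 libraries alone had 2 residual degrees of freedom and took the spread of each gene from the trend over all genes. Without the library labelled deltaMG replicate 1 the value for C1qb was -0.39 and that for C1qc changed sign, to 0.033. In bulk RNA, fewer cells of a type and less RNA per cell cannot be told apart.

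**Figure D1:**
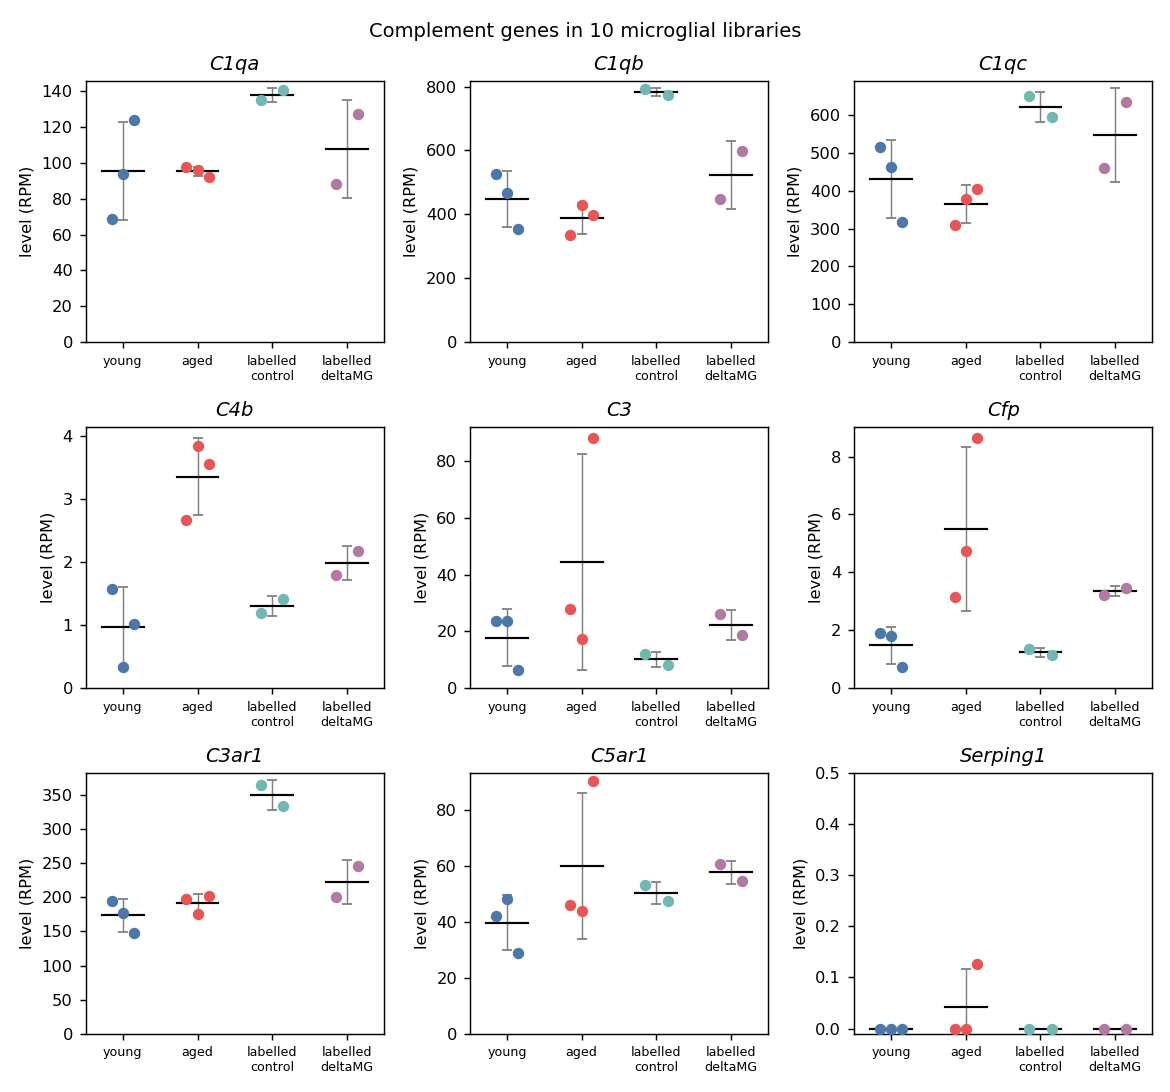
Level of each of the 9 complement genes (vertical axis, RPM, from 0) in the 4 groups, with 1 point per library, a black bar at the group mean and grey bars of 1 SD. The libraries labelled control stand highest for C1qa, C1qb and C3ar1, aged libraries stand highest for C4b, aged replicate 3 has the highest C3, Cfp and C5ar1, and Serping1 is at 0 in 9 of 10 libraries.

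Ratios of the chains within a library do not depend on scaling, while their sum in RPM does. Summed, the 3 genes gave 795 to 1110 RPM in young, 743 to 905 in aged, 1510 and 1576 in labelled control and 997 and 1361 in labelled deltaMG libraries, which was 0.368% to 0.710% of all listed signal. The ratio of C1qb to C1qc was 1.22 and 1.30 in labelled control and 0.973 and 0.940 in labelled deltaMG libraries, with no overlap. In young libraries it was 1.02, 1.01 and 1.12 and in aged ones 1.08, 1.13 and 0.983. The log2 difference between labelled deltaMG and labelled control was -0.40, with a two-sided exact permutation p of 0.333, the smallest that 2 against 2 libraries can give. In the ageing comparison the exact permutation p was 0.9, where 0.1 is the smallest possible.

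Young replicate 3 had the highest C1qa of that group and the lowest C1qb and C1qc, and the ratio of C1qa to C1qb was 0.131, 0.201 and 0.349 in young replicates 1, 2 and 3. It was 0.291, 0.223 and 0.231 in aged, 0.171 and 0.182 in labelled control and 0.197 and 0.212 in labelled deltaMG libraries. The exact permutation p was 0.7 for aged against young and 0.333 for labelled deltaMG against labelled control.

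**Figure D2:**
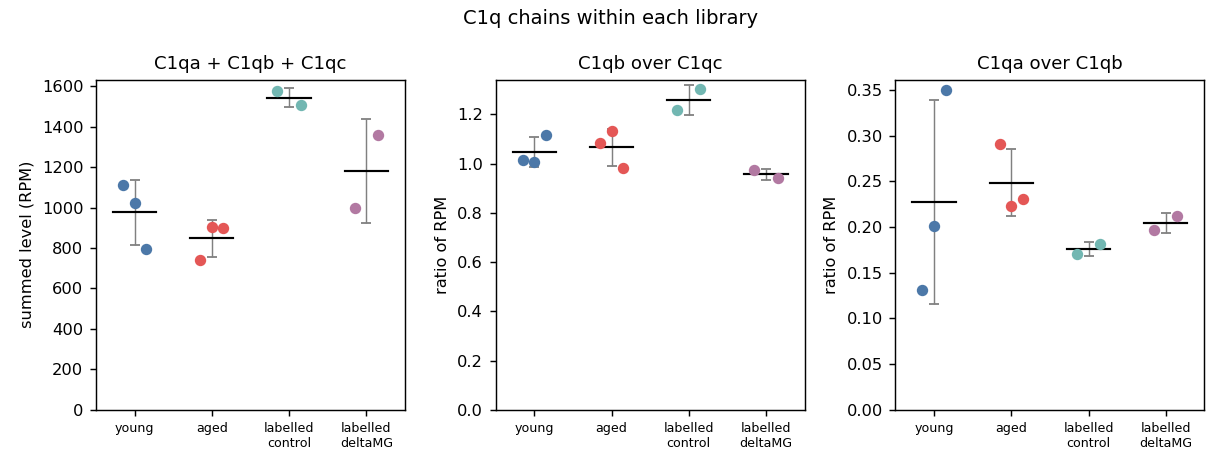
Sum of the 3 C1q genes (RPM), ratio of C1qb to C1qc and ratio of C1qa to C1qb in each library, by group, with 1 point per library, black bars at the means and grey bars of 1 SD. The libraries labelled control have the highest sums (1510 and 1576 RPM) and the highest ratios of C1qb to C1qc (1.22 and 1.30), and the young libraries spread from 0.131 to 0.349 in the ratio of C1qa to C1qb.

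By the root mean square difference between centred log2 profiles over the 10 libraries, the tested genes closest to the mean of the C1q trio included Creg1 (0.098), Cd81 (0.101), Cd68 (0.105) and Nol4l (0.107). The trio's own profile had a root mean square of 0.311. Cd81, a tetraspanin, measured 184 to 204 RPM in young, 178 to 206 in aged, 325 and 318 in labelled control and 207 and 265 in labelled deltaMG libraries.

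C4 follows C1q in the classical pathway, and C4b encodes the complement C4 of mice (chromosome 17, 34728380 to 34743882, minus strand). C4b measured 1.58, 0.328 and 1.01 RPM in young, 2.66, 3.84 and 3.56 in aged, 1.19 and 1.41 in labelled control and 1.79 and 2.17 in labelled deltaMG libraries. These values stood for 2 to 10 reads in young and 17 to 38 reads in aged libraries. Every aged library was above every other library, and the libraries labelled deltaMG were above those labelled control. Ranges of aged and young did not overlap for 23.9% of the genes tested at 10 RPM, and those of the Rab7 groups for 51.8%. The share among genes as low as C4b was not counted.

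C4b did not reach 10 RPM, and with the minimum lowered to 1 RPM in at least 2 libraries it was tested among 10800 genes. In that fit it was higher in aged than in young libraries, by a log2 fold change of 1.18 (SE 0.29) (limma adjusted p = 0.0232). The adjusted p was 0.109 when young replicate 2 was left out, 0.0589 when young replicate 3 was, 0.0742 when aged replicate 3 was, 0.0627 in a fit of the ageing groups alone and 0.0758 with the replicate number as a block. For labelled deltaMG minus labelled control it was 0.37 (adjusted p = 0.737). Of the 50-base words of C4b's transcripts, 34.6% also occur in transcripts of its neighbour C4a, so reads may have been split or dropped between them. C4a was at 0.158 to 0.328 RPM in young, 0.381 to 0.606 in aged and at most 0.579 RPM in the other libraries. The other 8 members shared 0 words of this length with any other gene.

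The tested genes with the profile closest to C4b were Cdkn1a (0.255), D17H6S56E-5 (0.275), Neat1 (0.303), Sdc3 (0.331) and Cbx5 (0.331), against a root mean square of 0.536 for C4b itself. Cdkn1a, an inhibitor of the cell cycle, measured 6.62, 6.07 and 6.05 RPM in young and 16.0, 18.5 and 18.0 RPM in aged libraries. It measured 6.69 and 6.20 RPM in labelled control and 10.8 and 12.3 RPM in labelled deltaMG libraries. Its order of groups was that of C4b, which its choice by closeness of profile favours.

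C3 is the central component on which all pathways converge (chromosome 17, 57203970 to 57228136, minus strand). It measured 23.5, 23.6 and 6.19 RPM in young, 27.7, 17.4 and 88.0 in aged, 12 and 8.18 in labelled control and 25.9 and 18.5 in labelled deltaMG libraries. Aged replicate 3 was above all other libraries, while aged replicate 2 lay within the young range. The log2 fold change was 1.15 (SE 0.50) for aged minus young (limma adjusted p = 0.195) and 1.07 (SE 0.61) for labelled deltaMG minus labelled control (0.380). Without aged replicate 3 the ageing value was 0.49, without young replicate 3 it was 0.56, and without aged replicate 2 it was 1.63 with an adjusted p of 0.0396. In a fit of the Rab7 libraries alone C3 had a limma adjusted p of 2.78e-05. That fit had 2 residual degrees of freedom and took the spread of each gene from the trend over all genes. The standard error of C3 was 0.22 there, and 510 of the 4151 genes were called.

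Neutrophil markers were high where C3 was high. Aged replicate 3, with 88.0 RPM of C3, had the highest neutrophil marker sum (4141 RPM), and the 3 libraries with the least C3, young replicate 3 and both labelled control, had the lowest sums (530, 662 and 439 RPM). The tested genes closest in profile to C3 were Pglyrp1 (0.190), Abca13 (0.20), Lcn2 (0.212), Atp8b4 (0.213) and Fam101b (0.220), against 0.954 for C3 itself. Pglyrp1 and Lcn2 encode granule proteins of neutrophils, and Lcn2 is one of the 11 markers. The part of neutrophil RNA in the C3 values was not tested.

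Cfp encodes properdin, which stabilises the convertase of the alternative pathway and is stored in neutrophils (chromosome X, 20925454 to 20931555, minus strand). It measured 1.89, 1.80 and 0.720 RPM in young, 3.13, 4.74 and 8.63 in aged, 1.34 and 1.13 in labelled control and 3.23 and 3.47 in labelled deltaMG libraries. Those were 5 to 12 reads in young and 20 to 68 reads in aged libraries. All aged libraries were above all young ones, and both libraries labelled deltaMG were above both labelled control. Among genes tested at 10 RPM, ranges did not overlap for 23.9% in the ageing and 51.8% in the Rab7 comparison, so such separation is common. The share at lower levels, where Cfp lies, was not counted.

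With the minimum of 1 RPM, Cfp was higher in aged than in young libraries, by a log2 fold change of 1.35 (SE 0.31) (limma adjusted p = 0.0177). For labelled deltaMG minus labelled control the value was 0.96 (SE 0.38) (limma adjusted p = 0.252). Cfp lies on chromosome X, and age and sex cannot be told apart in the ageing comparison. The ageing adjusted p was 0.106 without aged replicate 3 (log2 fold change 1.02), 0.0950 without young replicate 3, 0.0557 in a fit of the ageing groups alone and 0.0725 with the replicate number as a block. C4b and Cfp were thus the 2 members called higher in aged libraries of 8 tested at this minimum, where 2.34% of all tested genes were called higher. Aged replicate 3, with the most Cfp, also had the highest sums of neutrophil (4141 RPM) and monocyte markers (365 RPM). The monocyte sum was higher in every aged than in every young library, as Cfp was. Of the 6 monocyte markers 5 were tested at the 10 RPM minimum, and 4 were called higher, where 3.16% of all tested genes were. Ly6c2 and Vcan had medians of 7.78 and 5.78 RPM, so they may have met that minimum mainly through libraries where they were high. Of the 10 neutrophil markers tested there, 1 was called higher and 0 lower. Of the 11 microglial markers 0 were called higher and 6 lower, where 124 of the 4151 tested genes were lower. The part of RNA from neutrophils and monocytes in the Cfp values was not tested.

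**Figure D3:**
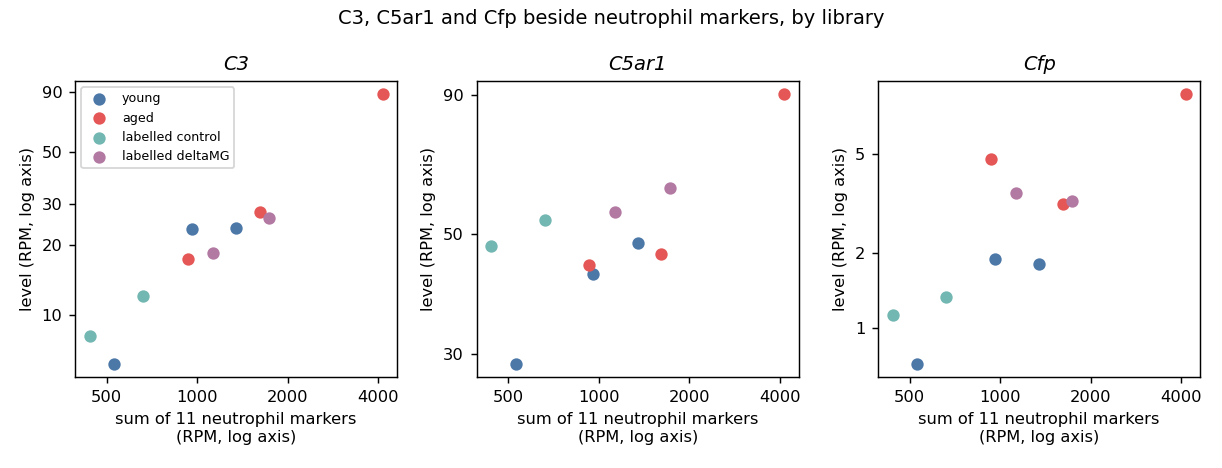
Level of C3, C5ar1 and Cfp (vertical axes, RPM, log scale) against the summed level of 11 neutrophil markers (horizontal axes, RPM, log scale), with 1 point per library coloured by group. Aged replicate 3 is at the upper right in each panel (88.0, 90.2 and 8.63 RPM at a sum of 4141 RPM), and young replicate 3 is lowest in each.

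Serping1 encodes the C1 inhibitor, which dissociates the proteases of C1 (chromosome 2, 84765387 to 84775444, minus strand). It was at 0 RPM in 9 of 10 libraries and at 0.127 RPM, 1 read, in aged replicate 3. A count of 0 allows up to 3 reads, which is 0.303 to 0.492 RPM in these libraries and covers counting error only. Differences between groups were not detectable at this depth.

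C3ar1, the receptor of the C3 fragment C3a (chromosome 6, 122847138 to 122856161, minus strand), was the 1 member of 6 called lower in the libraries labelled deltaMG, where 2.58% of tested genes were called lower. It measured 365 and 334 RPM in labelled control and 200 and 246 RPM in labelled deltaMG libraries, a log2 fold change of -0.65 (SE 0.16) (limma adjusted p = 0.0365). In young libraries it measured 195, 178 and 148 RPM and in aged ones 197, 175 and 201 RPM. The libraries labelled control were therefore above all 8 others, and the range of those labelled deltaMG overlapped that of the aged and lay above that of the young.

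The call of C3ar1 depended on single libraries. The adjusted p was 0.293 when control replicate 1 was left out, 0.126 when control replicate 2 was, 0.301 when deltaMG replicate 1 was, 0.0546 without young replicate 2 and 0.0548 without aged replicate 1. It was 0.171 with no filter and 0.140 with the replicate number as a block. Over the 19 alternatives the log2 fold change lay between -0.51 and -0.80. Its sign could not turn when 1 library was left out, since both labelled control values were above both labelled deltaMG values. Changes of filter, block or weights left the value at -0.65, so the sign is no check of the result.

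C3ar1 did not pass in the ageing comparison, at a log2 fold change of 0.15 (95% interval -0.13 to 0.42, limma adjusted p = 0.582). The difference of this effect from that in the Rab7 comparison was 0.80 with a standard error of 0.21 and passed (limma adjusted p = 0.0385), where 4.79% of tested genes did, and 1 of the 6 members did. It was lost in 9 of 18 alternatives, with an adjusted p of up to 0.201. The tested genes nearest to C3ar1 in profile were Mpeg1 (0.114), Lamp1 (0.122), Mfhas1 (0.124), Man2b1 (0.132) and Vps26a (0.137), against 0.390 for C3ar1 itself. Lamp1, a membrane protein of lysosomes, measured 491 and 421 RPM in labelled control and 224 and 280 RPM in labelled deltaMG libraries, and Mpeg1, a pore-forming protein of macrophages, 1589 and 1344 against 731 and 832 RPM.

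C5ar1, the receptor of C5a on myeloid cells (chromosome 7, 16246743 to 16259540, minus strand), measured 42.1, 48.0 and 28.8 RPM in young, 45.9, 43.7 and 90.2 in aged, 53.0 and 47.4 in labelled control and 60.6 and 54.7 in labelled deltaMG libraries. Only aged replicate 3 left the range of 28.8 to 60.6 RPM that held the other 9. The log2 fold change was 0.53 (SE 0.24) for aged minus young (limma adjusted p = 0.201) and 0.20 (SE 0.29) for labelled deltaMG minus labelled control (0.796). Without aged replicate 3 the ageing value was 0.20.

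Of the 6 members tested at 10 RPM, limma called 0 in the ageing comparison, where 6.14% of all tested genes were called. At an unadjusted p under 0.05 there were 2 of the 6, C3 and C5ar1, where 21.5% of tested genes passed. None of the 6 had ranges of aged and young libraries that did not overlap, against 23.9% of tested genes. In the Rab7 comparison 5 of the 6 had ranges that did not overlap, C3 and C5ar1 higher and C1qa, C1qb and C3ar1 lower in labelled deltaMG libraries, against 51.8% of tested genes.

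**Figure D4:**
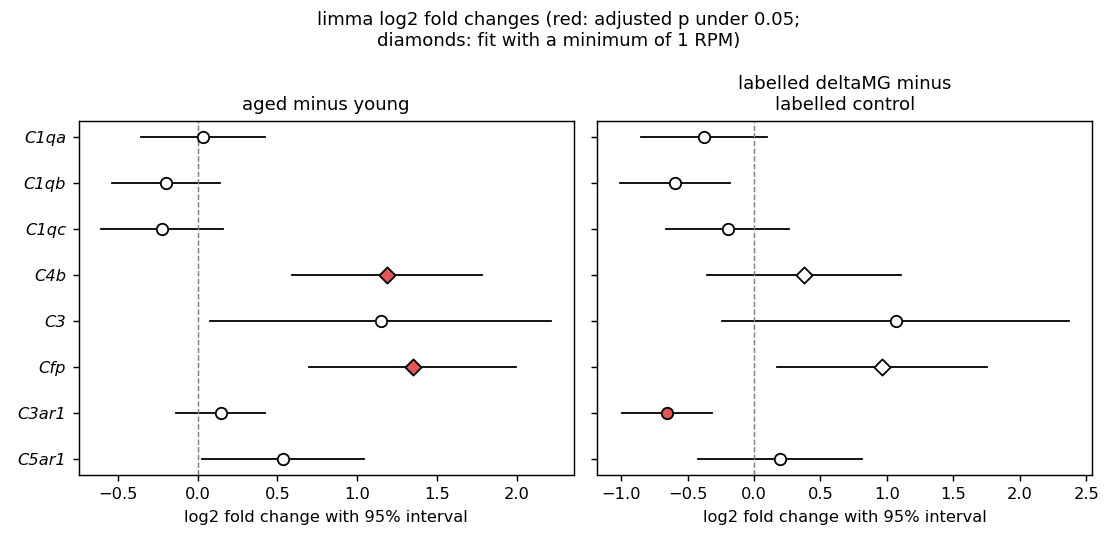
Log2 fold change (horizontal axis, on the log2(RPM + 1) scale) of 8 complement genes with 95% intervals, for aged minus young and for labelled deltaMG minus labelled control. Red symbols mark a limma adjusted p under 0.05, which are C4b and Cfp in the ageing panel and C3ar1 in the Rab7 panel, and diamonds mark the fit with a minimum of 1 RPM.

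The rest of the pathway was read from a list of 46 other complement genes, of which 9 were tested. None of the 14 genes of the classical and lectin pathways and none of the 9 of the alternative and terminal pathways was tested, and 29 of the 46 stayed under 1 RPM in every library. In the ageing comparison 2 of the 9 were called higher in aged libraries, where 3.16% of tested genes were, and 0 lower. The median log2 fold change was -0.01 against -0.05 for all tested genes. In the Rab7 comparison 0 rose and 2 fell, where 2.58% of tested genes fell, with a median of -0.31 against -0.02. Itgax was 1 of the 2 in both comparisons, and it met the minimum only through the libraries labelled control.

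Among receptors, Itgam and Itgb2 encode the chains of complement receptor 3, which binds fragments of C3 on tagged targets. Itgam measured 925 to 949 RPM in young, 741 to 1062 in aged, 866 and 895 in labelled control and 826 and 1089 in labelled deltaMG libraries, with log2 fold changes of -0.01 (95% interval -0.33 to 0.31) and 0.11 (-0.28 to 0.50). It shares exon bases on the same strand with Gm49368, and reads of the 2 cannot be told apart. Itgb2 measured 63.2 to 74.7 RPM in young and 80.4 to 122 RPM in aged libraries, and its log2 fold change was 0.45 (limma adjusted p = 0.0929).

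Itgax, which pairs with Itgb2 as complement receptor 4, was lower in the libraries labelled deltaMG than in those labelled control. It measured 18.9 and 17.2 RPM in labelled control and 2.75 and 4.05 RPM in labelled deltaMG libraries, a log2 fold change of -2.13 (SE 0.34) (limma adjusted p = 0.00220). In young libraries it was at 1.89 to 2.30 RPM and in aged ones at 4.04 to 6.98 RPM, a log2 fold change of 0.99 (limma adjusted p = 0.0496). Only the 2 labelled control libraries reached 10 RPM, so Itgax met that minimum only through the group where it was high. The alternatives at that minimum kept this selection. With the minimum of 1 RPM, which all 10 libraries reached, the limma adjusted p was 0.00028 in the Rab7 comparison and 0.0231 in ageing. The Itgax call in the ageing comparison was lost in 14 of 19 alternatives. That in the Rab7 comparison was lost in 1, without the library labelled control replicate 1. The difference of the effects was 3.12 (limma adjusted p = 0.000726) and passed in all 18 alternatives.

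Cd93, a C-type lectin receptor once described as a receptor of C1q, measured 4.61 to 9.30 RPM in young libraries. It measured 23.0, 13.8 and 49.1 RPM in aged replicates 1, 2 and 3, a log2 fold change of 1.66 (limma adjusted p = 0.0123). In labelled control libraries Cd93 was at 13.4 and 10.4 RPM. In labelled deltaMG ones it was at 22.7 and 17.1 RPM, both above aged replicate 2. Aged replicate 3 was again highest, and without it the ageing value was 1.19 (adjusted p = 0.0215). The call was lost in 4 of 19 alternatives, where the adjusted p was 0.0514 when young replicate 3 was left out, 0.0523 in a fit of the ageing groups alone, 0.0596 with the replicate number as a block and 0.0813 with no filter. Lrp1, an endocytic receptor, fell from 270 and 229 RPM in labelled control to 148 and 177 RPM in labelled deltaMG libraries, a log2 fold change of -0.62 (limma adjusted p = 0.0489), a call lost in 13 of 19 alternatives.

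Of the regulators, 2 of 15 were tested and neither was called. Cr1l, the mouse membrane regulator known as Crry, is named here after its values were seen. It measured 8.35 to 12.3 RPM in young, 12.1 to 13.8 in aged, 19.2 and 14.4 in labelled control and 10.2 and 12.4 in labelled deltaMG libraries. Its log2 fold change was 0.34 for aged minus young (limma adjusted p = 0.329) and -0.52 in the Rab7 comparison (0.231). Clu, which encodes clusterin, was at most 1.48 RPM.

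**Figure D5:**
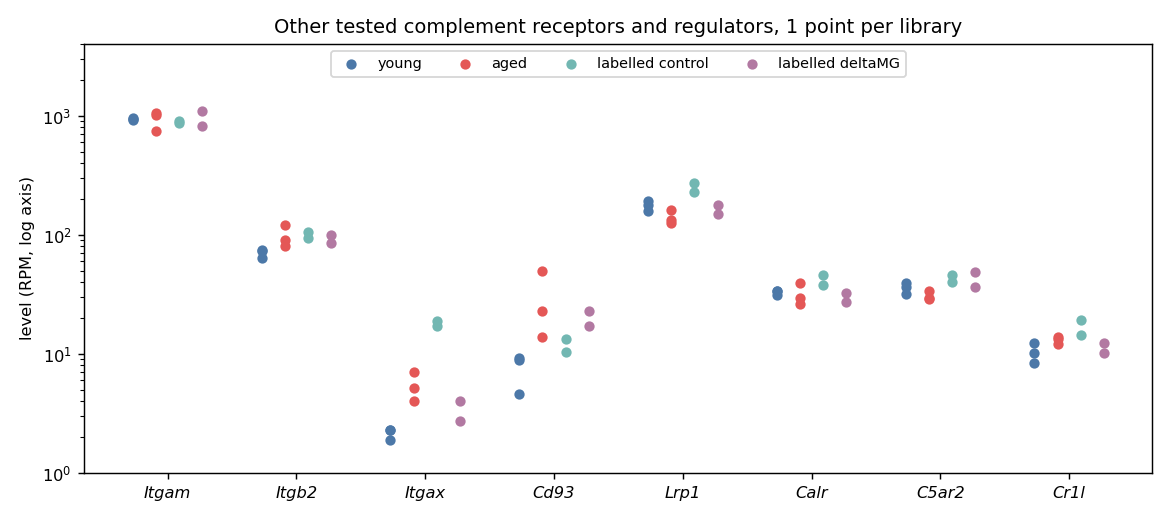
Level (vertical axis, RPM, log scale) of 8 tested genes of the wider complement list, with 1 point per library coloured by group. Itgax stands apart in the libraries labelled control (17.2 and 18.9 RPM), and Itgam lies between 741 and 1089 RPM in all. Cd93 is highest in aged replicate 3 (49.1 RPM), while aged replicate 2 (13.8 RPM) lies below both libraries labelled deltaMG (22.7 and 17.1 RPM).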

How the data were processed

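The deposited values were taken to be RPM made by the authors, since in each library 94.2% to 94.6% of values up to 500 reads were within 0.05 of a whole multiple of 1 step after a constant of 0.0001 was taken off. The rest were fractions, so no count model was used. Read numbers given for members are values divided by the step. Per the submitters' processing notes, builds were GRCm38 and mm10 and FastQC was used, while for aligner, counter, annotation, strand setting and scaling nothing is given in the sources used here.

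The 4151 genes that reached 10 RPM in 2 or more libraries were fitted as log2(RPM + 1) with limma 3.58.1 (R 4.3.3, trended prior), 4 groups sharing 1 estimate of the spread over 6 residual degrees of freedom. The ageing contrast (aged minus young), the Rab7 contrast (labelled deltaMG minus labelled control) and their difference were tested. A call is a Benjamini-Hochberg adjusted p under 0.05 over all tested genes. The fold changes understate those of low genes. Ratios of C1q genes were compared with exact two-sided permutation tests.

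Positions and exon lengths (the union of all exons) came from GENCODE M21, and promoter windows from RefSeq. Named genes were the members, called genes of the wider list with 7 fixed ones, and the 5 closest profiles to each of 4 targets. A few genes that this rule names are not reported here. Alternatives covered pseudocount, minimum, scaling, samples in the fit, block, weights and each library. Those that combine the 1 RPM minimum with another change were chosen after seeing the data. Members and lists were chosen with earlier results of these data known.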

Additional observations from a re-analysis of the deposited data

How the results depend on the processing

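Over all tested genes 255 were called for aged minus young (131 higher and 124 lower, or 217 and 128 with median-of-ratios rescaling), 157 for labelled deltaMG minus labelled control and 199 for their difference. With no filter these counts were 119, 86 and 101, and with the replicate block 66, 69 and 102. A fit of each comparison's own groups gave 121 and 510, and array weights gave 361, 357 and 344. The 510 calls rest on a spread taken wholly from the trend over all genes. Leaving out 1 library gave 96 to 422, 25 to 317 and 71 to 264. In the ageing comparison 0 members were called, 2 with the minimum of 1 RPM, and 0 to 1 without 1 library. In the Rab7 comparison 1 was called, 2 with quantile normalization or array weights, 3 with own groups only, and 0 with no filter, with the replicate block, or without 5 of the libraries (0 to 1 over all). For the difference 1 was called, 0 with the minimum of 1 RPM, no filter or the replicate block, and 0 to 1 without 1 library.

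Signs turned for uncalled values. With quantile normalization the ageing value was 0.088 for C1qb and 0.033 for C1qc, and the difference of effects was 0.17 for C1qc. With array weights that of C3 was -0.37. Leaving out 1 library gave -0.18 to 0.24 for C1qa in ageing, -0.43 to 0.033 for C1qc in the Rab7 comparison, and -0.25 to 0.21 for C1qc and -0.57 to 0.57 for C3 in the difference. The causes were not tested.

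Same-numbered libraries did not deviate together in the ageing groups, with correlations of -0.14, -0.24 and -0.39 across genes. Deviations were taken from group means, which ties these values together. In the 2 Rab7 groups this makes the deviations of the 2 libraries mirror images. The correlation was 0.12 for the same number and -0.12 otherwise, so it cannot decide pairing there. The numbers were not taken as pairs. Values under 1 RPM rest on fewer than 10 reads.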

Other observations

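Some complement genes outside the tested set were still detected, and those named here were chosen after their values were seen. Fcnb, which encodes ficolin-B of the lectin pathway, measured 1.01 to 3.44 RPM in young libraries, 4.39, 1.01 and 18.3 RPM in aged replicates 1, 2 and 3, 0.743 and 0.846 RPM in labelled control and 3.58 and 2.17 RPM in labelled deltaMG libraries. At the minimum of 1 RPM its limma adjusted p was 0.351 for aged minus young. C1qbp, a mitochondrial protein that also binds C1q, reached at most 6.05 RPM, Cd55 at most 3.05 RPM and Cd59a at most 1.92 RPM. Of the 46 genes of the wider list, 6 were at 0 in every library and 24 never exceeded 3 reads.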
